A study of Saccharomyces paradoxus and Saccharomyces cerevisiae and Nakaseomyces glabratus with 58 samples.

Results

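Candida glabrata (Nakaseomyces glabratus in the labels), a yeast that can infect people, carries 2 genes in the orthogroup of S. cerevisiae SFP1, CAGL0D00682g and CAGL0M09955g. The comparison described here is the deletion of CAGL0D00682g against wild type in log phase growth. It consists of 3 deletion libraries and 3 wild type libraries, 6 of the 58 samples of the series, and covers all 5461 features of the C. glabrata count table, of which 4760 had enough counts to be tested. The members are therefore samples and genes fixed by the strain labels, and no measured value was used to choose them.

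The groups were wild type C. glabrata, C. glabrata with the genotype delta CAGL0D00682g and, for comparison, C. glabrata with the genotype delta CAGL0M09955g, 3 libraries each. S. cerevisiae wild type and SFP1 deletion libraries, 3 each, gave a second comparison. All of them were log phase cultures in a medium the labels abbreviate BMW, collected at an optical density of 0.6 to 0.8, and polyadenylated RNA was sequenced as paired reads of 25 bases. The labels name no parental strain, no marker that replaced the deleted gene and no number of independent clones. They do not say that replicates were separate cultures, so p-values measure only the spread between these libraries, which may be technical.

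SFP1 of S. cerevisiae encodes a zinc finger transcription factor. When nutrients are plentiful, the TOR and protein kinase A pathways keep Sfp1 in the nucleus, where it raises transcription of ribosomal protein genes and of the ribosome biogenesis genes, whose products build and modify new ribosomes. Under starvation or stress it leaves the nucleus and these genes fall. The lineage of C. glabrata descends from the whole genome duplication of yeasts, after which a pair of copies of some regulators was kept. Roles given below for C. glabrata genes are those of the S. cerevisiae genes in the same orthogroup.

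Depth was similar in both groups. Wild type libraries held 2063182, 2473066 and 2479607 counts for replicates A, B and C, and the CAGL0D00682g deletion libraries held 2300286, 2627029 and 2678841. A single feature, CAGL0L13365r, took between 34.2% and 39.1% of the counts of each of the 6 libraries, and with CAGL0L13398r it took 39.3% to 44.8%, so the depth left for all other genes was smaller than the totals. Levels are given as CPM, counts scaled to a common depth with TMM factors. Values after ± are SDs over 3 libraries for CPM and standard errors for log2 fold changes, which are deletion over wild type. A gene is called where edgeR's quasi-likelihood test gave an adjusted p (Benjamini-Hochberg over all genes tested) below 0.05. Library C of the CAGL0D00682g deletion stood apart from its replicates. The chi-square per degree of freedom between libraries was 6.04 for A against C and 3.53 for B against C, and 1.80 for A against B. Among wild type libraries it was 1.59 to 2.30. These values rest on counts scaled by library totals, without TMM factors, and include CAGL0L13365r. That feature took 34.2%, 36.1% and 39.1% of the counts in deletion libraries A, B and C. Beside each gene whose call was lost when any single library was left out, those libraries and the adjusted p without them are given.

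The deletion was complete in the RNA. CAGL0D00682g had 74, 83 and 108 counts in the wild type libraries (39.2 ± 5.14 CPM, n = 3) and 0 counts in each of the deletion libraries. Against a floor of 3 counts over the group, its level was at least 96.6-fold lower. The targeted gene thus fits the label of every library. In bulk RNA, fewer transcripts per cell and fewer cells that make a transcript cannot be told apart, here and below. In the CAGL0M09955g deletion libraries the same gene had 129, 114 and 139 counts (49.8 ± 6.18 CPM), a log2 fold change of 0.34 ± 0.13 with an adjusted p of 0.0311 in edgeR's quasi-likelihood test.

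The other SFP1 gene did not move past the test when CAGL0D00682g was deleted. CAGL0M09955g had 74, 98 and 118 counts in wild type (42.8 ± 6.28 CPM) and 107, 116 and 103 in the CAGL0D00682g deletion (44.3 ± 2.21 CPM), and the CPM of the groups overlapped. Its log2 fold change was 0.04 ± 0.12, with a 95% interval of -0.21 to 0.29 and an adjusted p of 0.949 (edgeR). It had 0 counts in all libraries of its own deletion.

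None of the 3 genes on either side of CAGL0D00682g in the order of their IDs passed the test, by edgeR. Fold changes on the log2 scale were 0.03 ± 0.05 for CAGL0D00616g (RPL31A and RPL31B, a large subunit ribosomal protein), -0.09 ± 0.09 for CAGL0D00638g (BRE1, a ubiquitin ligase for histone H2B) and -0.11 ± 0.14 for CAGL0D00660g (AHK1). On the other side they were 0.35 ± 0.19 for CAGL0D00704g (the YET family), -0.16 ± 0.30 for CAGL0D00726g (CBS1) and 0.17 ± 0.28 for CAGL0D00748g (COX9, a subunit of cytochrome c oxidase). CAGL0D00704g, next to the deleted gene, had 13.9, 15.1 and 15.9 CPM in wild type and 16.0, 21.9 and 19.2 CPM in the deletion. Its adjusted p was 0.566.

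Few genes were called in log phase, and a gene not called may still differ by a small amount. Of 4760 genes tested, 18 rose (0.378%) and 9 fell (0.189%), the deleted gene among the latter, by edgeR's quasi-likelihood test. Another 434 genes had an unadjusted p below 0.05 without passing the adjustment, out of 461 in all. Of the called genes, 5 differed by at least 1 on the log2 scale. Scaling by library size alone turned the split of 18 and 9 into 15 rises and 4 falls. The absolute log2 fold change had a median of 0.108 over all genes tested, below the median standard error of 0.145. The 95% interval of the fold change lay within 0.5 of 0 on the log2 scale for 3019 genes and within 1 for 4512, so that a change of 2-fold or more was outside the interval for most genes. In the deletion of CAGL0M09955g, which was fitted against the same wild type libraries, 715 genes rose (15%) and 886 fell (18.6%). Of the 27 genes called in the CAGL0D00682g deletion, 24 were also called in the CAGL0M09955g deletion, 22 of them in the same direction. Over all 4760 genes tested, 1601 were called in the CAGL0M09955g deletion. Both comparisons use the same wild type libraries, so their calls are not independent.

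**Figure D1:**
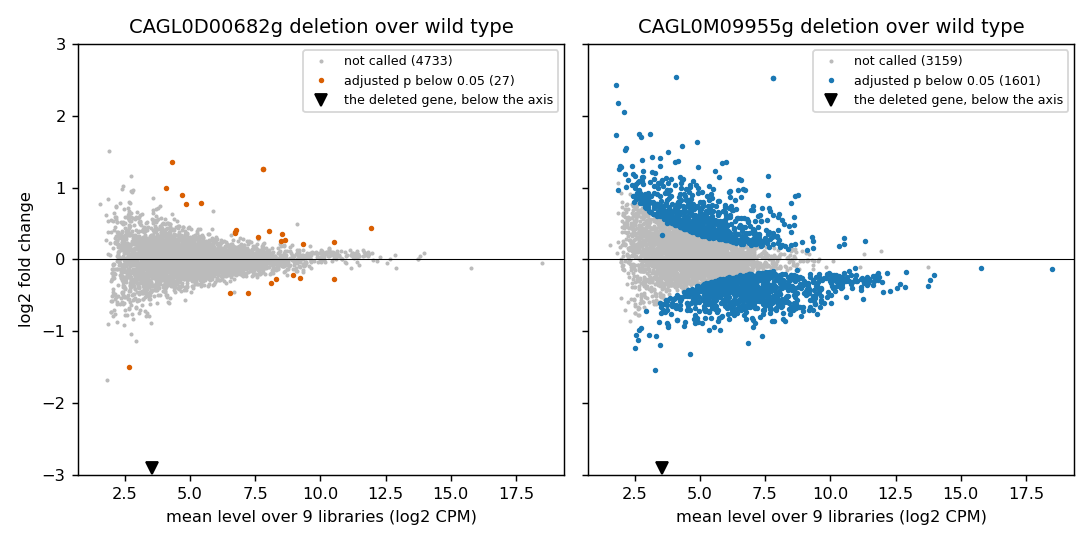
Log2 fold change of each tested gene (vertical axis) against its mean level over the 9 C. glabrata libraries (horizontal axis, log2 CPM), for the CAGL0D00682g deletion on the left and the CAGL0M09955g deletion on the right. Coloured points are genes called by edgeR, 27 on the left and 1601 on the right, and the triangle at the lower edge is the deleted gene, which lies below the axis.

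The rises of over 2-fold were in genes with no S. cerevisiae name in the orthology table, for which no role is given here. CAGL0H00110g had 9.44, 10.3 and 9.19 CPM in wild type and 25.1, 20.8 and 28.5 CPM in the deletion. Its log2 fold change was 1.35 ± 0.20, with an adjusted p of 4.75e-06 (edgeR). In the CAGL0M09955g deletion CAGL0H00110g rose by 1.57 ± 0.19 on the log2 scale. The direct contrast of the deletions did not pass for it (log2 difference -0.22, adjusted p 0.276, edgeR). CAGL0A02255g and CAGL0A02277g, which are next to each other in ID order, had the same counts as each other in every library. Among features with over 50 counts over the 9 C. glabrata libraries, these were the 2 for which this held. Reads of such copies may be split by the authors' counting, so the pair is described as 1 uncertain item. Counts of genes called or tested include both.

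This pair of copies had 109, 50.8 and 130 CPM in wild type and 212, 208 and 271 CPM in the deletion. Wild type replicate B was low. The log2 fold change was 1.26 ± 0.13 with an adjusted p of 2.46e-11 (edgeR), and it lay between 0.95 and 1.57 over the 12 alternatives in processing, single libraries left out included. In the CAGL0M09955g deletion the pair reached 656, 484 and 520 CPM, and the direct contrast of the deletions gave a log2 difference of -1.26 with an adjusted p of 4.06e-16. So the pair rose in the CAGL0D00682g deletion, and its level was lower there than in the other deletion.

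The genes around this pair in ID order showed mixed values. On one side lie CAGL0A02211g and CAGL0A02233g, members of the large orthogroup of hexose and polyol transporters and glucose sensors (HXT, RGT2, SNF3, ITR2 and others). CAGL0A02211g had 1520, 1352 and 1585 CPM in wild type and 1339, 1295 and 1065 CPM in the deletion, a fall by 0.27 ± 0.06 on the log2 scale (adjusted p 0.00656, edgeR). Library C was its lowest value, and without library C the log2 fold change was -0.17 with an adjusted p of 0.104. The call was also lost without wild type A or C (adjusted p 0.0872 and 0.167), in DESeq2 and with scaling by library size alone. CAGL0A02233g was at 37.7, 40.9 and 35.9 CPM against 35.1, 32.7 and 25.3 CPM, which did not pass (log2 fold change -0.30 ± 0.15, adjusted p 0.496). On the other side, CAGL0A02299g was at 37.3, 41.3 and 38.4 CPM against 53.3, 53.0 and 43.2 CPM, also short of the threshold (log2 fold change 0.35 ± 0.12, adjusted p 0.266). In the CAGL0M09955g deletion, the 5 features from CAGL0A02211g to CAGL0A02299g were called higher than wild type, by 0.21 to 2.53 on the log2 scale. The next one, CAGL0A02321g, of the same transporter orthogroup, was lower there by 0.52 and did not pass in the CAGL0D00682g deletion (log2 fold change -0.17, adjusted p 0.493).

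Other unnamed genes moved by less or at lower levels. CAGL0B02970g rose from 6.46, 7.75 and 7.10 CPM to 11.3, 16.5 and 14.7 CPM, a log2 fold change of 0.99 ± 0.24 (adjusted p 0.0217, edgeR). Its call was lost in 5 of the 6 fits that left out 1 library, with adjusted p values of 0.141, 0.0535 and 0.107 without wild type A, B and C and of 0.175 and 0.0668 without deletion B and C. CAGL0H10626g rose from 219, 203 and 202 CPM to 280, 263 and 280 CPM, a log2 fold change of 0.40 ± 0.07 (adjusted p 2.36e-04), and kept its call in all 12 alternatives. The feature Cgla_YGOB_K07414 fell from 12.9, 7.75 and 10.02 CPM to 2.17, 3.07 and 5.30 CPM, by 1.504 on the log2 scale, and lost the call without wild type A, deletion A or deletion B (adjusted p 0.141, 0.0887 and 0.0529).

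**Figure D2:**
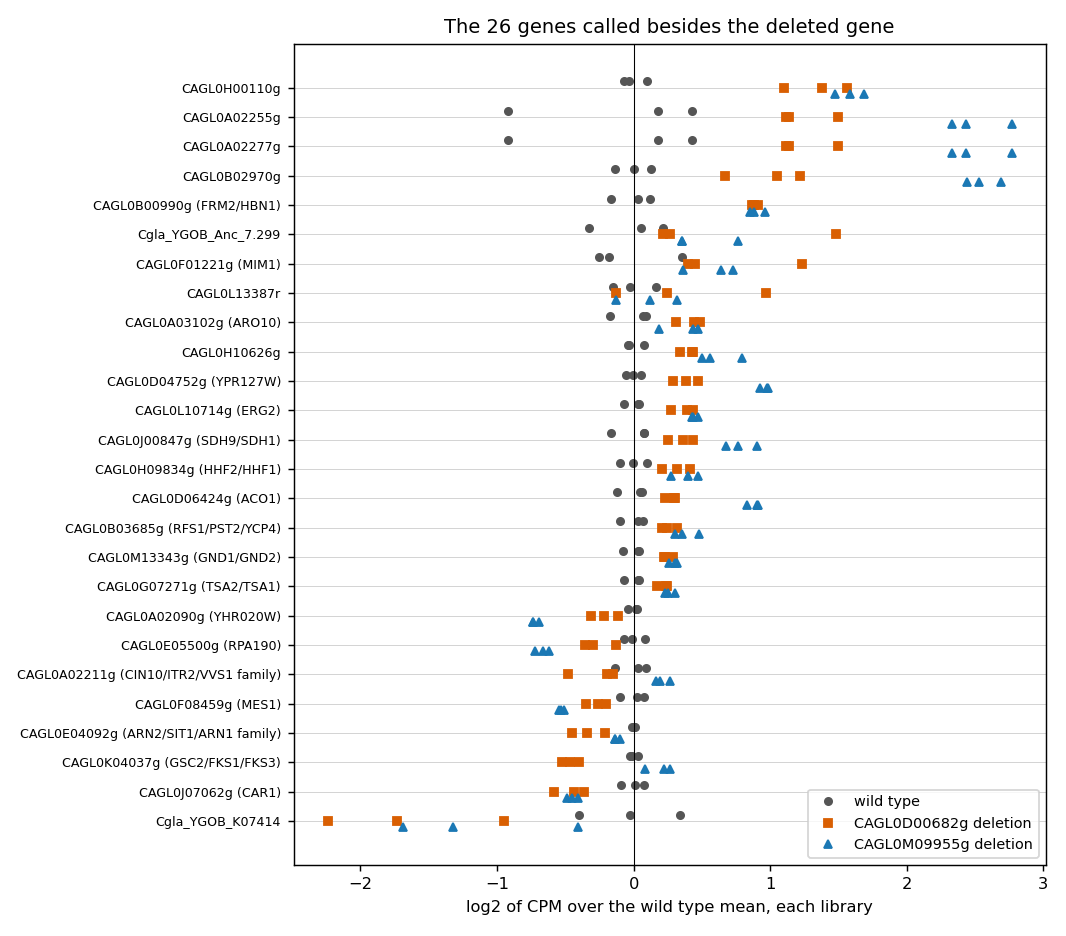
Each called gene except the deleted one (rows, with its S. cerevisiae name where it has one) in each of the 9 C. glabrata libraries; the horizontal axis is the log2 of CPM over the wild type mean. Grey circles are wild type, orange squares the CAGL0D00682g deletion and blue triangles the CAGL0M09955g deletion. For CAGL0L13387r and Cgla_YGOB_Anc_7.299 a single orange square stands far to the right of the others.

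Named rises included genes of energy and redox metabolism. CAGL0J00847g, of the orthogroup of SDH1 (the flavoprotein subunit of succinate dehydrogenase), had 297, 296 and 251 CPM in wild type and 380, 335 and 362 CPM in the deletion. The log2 fold change was 0.35 ± 0.07 (adjusted p 9.59e-04, edgeR). CAGL0D06424g (ACO1, aconitase of the TCA cycle) had 283, 321 and 318 CPM against 380, 377 and 361 CPM, with a log2 fold change of 0.27 ± 0.06 (adjusted p 0.00876). Both were higher again in the CAGL0M09955g deletion, and the direct contrast gave log2 differences of -0.43 and -0.61, with adjusted p values of 6.15e-08 and 1.83e-13. Against wild type the SDH1 call was lost without wild type C (adjusted p 0.0595) and the ACO1 call without wild type A (adjusted p 0.206).

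These were the called members of the TCA and glyoxylate cycle list, 2 of 31 tested, with none lower. The median log2 fold change of the list was 0.13, beside 0.003 for all genes tested. An unadjusted p below 0.05, in either direction, was found for 12 of its 31 genes. Over all 4760 genes tested, 461 had an unadjusted p below 0.05 and 18 were called higher. The oxidative phosphorylation list had 1 called gene of 41, the same SDH1 orthologue, and a median of 0.09. SDH2, the iron-sulfur subunit of succinate dehydrogenase, is represented by 2 genes: CAGL0C03223g had 16.4, 18.5 and 19.6 CPM in wild type and 24.3, 21.1 and 29.8 CPM in the deletion, and CAGL0E03850g had 34.3, 39.6 and 30.9 against 42.1, 48.8 and 49.7 CPM. Neither gene passed the test (log2 fold changes 0.45 ± 0.17 and 0.43 ± 0.13, adjusted p 0.313 and 0.115). Citrate synthase, which starts the cycle, did not pass either. CAGL0H03993g, of the orthogroup of CIT1 and CIT2, was at 165, 178 and 185 against 173, 153 and 152 CPM (log2 fold change -0.15 ± 0.07, adjusted p 0.495). The other gene of that orthogroup, CAGL0B03663g, had a log2 fold change of 0.14 ± 0.22 (adjusted p 0.896).

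The redox genes were CAGL0M13343g and CAGL0G07271g. CAGL0M13343g, of the orthogroup of GND1 and GND2 (6-phosphogluconate dehydrogenase, an NADPH source of the pentose phosphate pathway), had 1314, 1219 and 1319 CPM in wild type and 1570, 1498 and 1503 CPM in the deletion, a log2 fold change of 0.25 ± 0.05 (adjusted p 0.00234, edgeR, and 0.0535 without wild type B). CAGL0G07271g, of the orthogroup of the peroxiredoxins TSA1 and TSA2, had 556, 598 and 601 CPM against 659, 689 and 693 CPM, a log2 fold change of 0.22 ± 0.05 (adjusted p 0.0257). This call was lost without wild type A, B or C (adjusted p 0.311, 0.0533 and 0.0555) or deletion B (0.12). It was also lost with scaling by library size alone and with only the 6 libraries compared. Both are members of the oxidative stress list, where 2 of 37 rose and none fell, with a median of 0.11. Among all 4760 genes tested 18 rose and 9 fell. A second TSA gene, CAGL0K06259g, did not pass (0.21 ± 0.07, adjusted p 0.217). CAGL0B00990g, of the orthogroup of the nitroreductase-like genes FRM2 and HBN1, rose more steeply, from 18.4, 17.2 and 15.04 CPM to 30.8, 31.1 and 31.8 CPM. The SD over its deletion libraries was 0.514 CPM, its log2 fold change was 0.89 ± 0.16 (adjusted p 3.74e-04), and it kept its call in each fit that gave it an adjusted p. In the CAGL0M09955g deletion CAGL0B00990g rose by 0.90 ± 0.16 on the log2 scale, and the direct contrast of the deletions gave -0.01. CAGL0B03685g, of the flavodoxin-like genes RFS1, PST2 and YCP4, rose by less in the CAGL0D00682g deletion. The log2 fold change was 0.26 ± 0.06 (adjusted p 0.0191). Its call was lost without wild type A or B (adjusted p 0.0803 and 0.192) or deletion C (0.0554), and with scaling by library size alone.

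The remaining named rises were single genes of several pathways. CAGL0A03102g (ARO10, the decarboxylase of aromatic amino acid breakdown) had 81.5, 96.0 and 97.7 CPM in wild type and 128, 114 and 124 CPM in the deletion, a log2 fold change of 0.40 ± 0.09 (adjusted p 0.00656, edgeR). The call was lost without wild type A (adjusted p 0.146) or deletion A (0.0518). CAGL0L10714g (ERG2, a sterol isomerase of ergosterol synthesis) had 90.4, 89.6 and 83.5 against 115, 106 and 119 CPM, a log2 fold change of 0.37 ± 0.08 (adjusted p 0.0114). The ERG2 call was lost without wild type C (adjusted p 0.124) or deletion C (0.063), and in DESeq2. It was the sole called gene of 31 in the ergosterol list, whose median was 0.02. ERG11, the target of azole drugs, had a log2 fold change of -0.07 ± 0.06 (CAGL0E04334g, adjusted p 0.772). CAGL0H09834g, of the orthogroup of the histone H4 genes HHF1 and HHF2, had 166, 178 and 155 against 207, 192 and 221 CPM (log2 fold change 0.31 ± 0.07, adjusted p 0.0128). That call was lost without wild type A or C (adjusted p 0.0884 and 0.173) or deletion C (0.079), and with scaling by library size alone. It was the called one of 13 histone genes, of which 12 had a positive fold change and the median was 0.15. Over all 4760 genes tested 2414 had a positive fold change. Core histone genes are transcribed in S phase. The G1/S cell cycle list, 44 genes, had no call and a median of 0.02. Whether the share of cells in S phase differed was not tested. CAGL0D04752g (YPR127W) also rose, by 0.38 ± 0.09 on the log2 scale (adjusted p 0.0111), and lost the call without wild type C (adjusted p 0.101) or deletion C (0.0722).

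Leaving out library C of the deletion moved 3 rises to an adjusted p of over 0.3. CAGL0L13387r had 3219, 4182 and 6899 CPM in the deletion libraries A, B and C and 3452, 3938 and 3180 CPM in wild type. Its log2 fold change was 0.44 (adjusted p 0.0151, edgeR), and without library C it was 0.08 (adjusted p 0.792). Without wild type A or C the adjusted p was 0.146 and 0.194, and DESeq2 did not call it. Cgla_YGOB_Anc_7.299 was at 38.1, 39.6 and 91.7 CPM, against 38.2, 26.3 and 34.3 CPM in wild type, and its adjusted p was 0.67 without library C and 0.111 and 0.0555 without wild type B and C. CAGL0F01221g (MIM1, which helps insert proteins into the mitochondrial outer membrane) was at 28.6, 27.7 and 49.3 CPM against 26.8, 18.5 and 17.5 CPM in wild type, and its adjusted p was 0.394 without library C and 0.091 and 0.167 without wild type B and C. Without library C another 9 genes lost the call with an adjusted p between 0.0554 and 0.252 and an unchanged direction. They were the rises of CAGL0B02970g, CAGL0B03685g, YPR127W, histone H4 and ERG2 and the falls of CAGL0A02211g, RPA190, MES1 and YHR020W. In all, 15 of the 27 called genes were called without it, along with 6 others.

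Named falls included genes of nutrient use and the cell wall. CAGL0J07062g (CAR1, arginase, which breaks down arginine as a nitrogen source) had 173, 193 and 185 CPM in wild type and 136, 123 and 143 CPM in the deletion. The log2 fold change was -0.46 ± 0.07 with an adjusted p of 2.67e-05 (edgeR), and the call held in all 12 alternatives. In the CAGL0M09955g deletion its fold change was -0.45, and the direct contrast of the deletions gave -0.01, with CPM of 131, 139 and 135 there. Among the 44 nitrogen catabolite genes CAR1 was the sole call, and the median was -0.06.

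CAGL0K04037g, of the orthogroup of FKS1, GSC2 and FKS3 (the catalytic subunit of beta-1,3-glucan synthase, the target of echinocandin drugs), had 97.3, 100 and 96.5 CPM in wild type and 71.1, 74.2 and 68.1 CPM in the deletion. The log2 fold change was -0.46 ± 0.09 (adjusted p 0.00135, edgeR), a call kept in all 12 alternatives. In the CAGL0M09955g deletion it was at 104, 114 and 118 CPM, on the other side of wild type. The direct contrast gave a log2 difference of -0.65, so its level differed between the deletions. It was 1 of 101 cell wall genes, with none other called and a median of 0.01.

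CAGL0E04092g, of the orthogroup of the siderophore-iron transporters ARN1, ARN2 and SIT1, had 300, 305 and 303 CPM in wild type and 262, 239 and 221 CPM in the deletion, a log2 fold change of -0.33 ± 0.06 (adjusted p 0.00135, edgeR). It kept the call in 11 of 12 alternatives and lost it with scaling by library size alone. No other gene of the 31 in the iron list was called, and the list had a median of 0.03.

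Falls were called for 2 of 23 cytosolic tRNA synthetases and 1 of 45 subunits of RNA polymerases I and III. Over all genes tested it was 9 of 4760. CAGL0E05500g (RPA190, the largest subunit of RNA polymerase I, which transcribes ribosomal RNA) had 737, 708 and 788 CPM in wild type and 605, 682.1 and 582 CPM in the deletion, a log2 fold change of -0.26 ± 0.06 (adjusted p 0.00856, edgeR). CAGL0F08459g (MES1, methionyl-tRNA synthetase) had 349, 394 and 381 against 312, 326 and 294 CPM (-0.27 ± 0.06, adjusted p 0.0111). CAGL0A02090g (YHR020W, a prolyl-tRNA synthetase) had 596, 620 and 622 against 565, 527 and 494 CPM (-0.21 ± 0.06, adjusted p 0.0464). All 3 fell further in the CAGL0M09955g deletion, by 0.67, 0.53 and 0.72 on the log2 scale, and differed between the deletions in the direct contrast (adjusted p 2.22e-08, 6.79e-04 and 5.21e-11). The RPA190 call was lost without wild type C, deletion A or deletion C (adjusted p 0.192, 0.0518 and 0.0597), and the MES1 call without wild type B, wild type C or deletion C (0.14, 0.101 and 0.0668). Both were also lost with scaling by library size alone. The YHR020W call was lost under that scaling too and was kept in 2 of 12 alternatives. Its adjusted p was 0.099, 0.179 and 0.226 without wild type A, B and C and 0.15 and 0.252 without deletion B and C.

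The gene classes that Sfp1 is known to drive in S. cerevisiae did not fall together in the CAGL0D00682g deletion. Of 85 cytosolic ribosomal protein genes none was called in either direction. Their log2 fold changes ran from -0.05 to 0.18 with a median of 0.08, and 83 were positive, beside 2414 of all 4760 genes tested. An unadjusted p below 0.05 was found for 24 of them, beside 461 of all 4760. The 95% interval of every ribosomal protein gene lay within 0.5 of 0. By library, the median of these genes against the wild type mean was 0.05, 0.04 and 0.13 in deletion libraries A, B and C and -0.02, 0.003 and 0.02 in wild type. The deletion libraries were thus slightly above the wild type libraries, with library C highest, and without library C the median fold change was 0.05. As a share of all counts, ribosomal protein genes took 13.8% ± 0.356 (SD, n = 3) in the deletion and 12.95% ± 0.271 in wild type. RPL3 (CAGL0G02079g) had 3795, 3772 and 3967 CPM in wild type and 4155, 3906 and 3876 CPM in the deletion, which overlap. RPS3 (CAGL0J11220g) and RPP0 (CAGL0G00990g) had log2 fold changes of 0.04 ± 0.05 and 0.11 ± 0.05 (adjusted p 0.845 and 0.407).

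Ribosome biogenesis genes, 195 tested, likewise had no call by edgeR and a median log2 fold change of -0.02. Unadjusted p values below 0.05 were found for 16 of them, beside 461 of all 4760 genes tested. The 95% interval lay within 0.5 of 0 for 179 of them. Values were -0.05 ± 0.05 for CAGL0K01859g (NOP1, which methylates pre-ribosomal RNA), -0.02 ± 0.05 for CAGL0A04015g (NOP56, a partner of NOP1 in the same particle), -0.08 ± 0.06 for CAGL0E03245g (NSR1, a nucleolar processing factor) and -0.02 ± 0.07 for CAGL0C03369g (NOG2, a GTPase of large subunit assembly). Among 46 translation factors none was called and the median was -0.03. Of translation elongation genes, CAGL0B03487g, of the orthogroup of elongation factor 3 (YEF3), was at 7991, 7888 and 8689 against 8141, 7602 and 6923 CPM. That difference did not pass (log2 fold change -0.12 ± 0.05, adjusted p 0.377), and the groups overlap. The 23 cytosolic tRNA synthetases had the 2 falls named above and a median of -0.04, and the 45 subunits of RNA polymerases I and III had 1 fall, RPA190, and a median of 0.02.

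The regulators of ribosomal protein genes gave no call either. CAGL0C00759g, of the orthogroup of IFH1 (a coactivator at ribosomal protein promoters) and CRF1 (a corepressor), came closest, with 113, 110 and 109 CPM in wild type and 86.7, 88.4 and 94.1 CPM in the deletion. Its log2 fold change was -0.30 ± 0.08 with an adjusted p of 0.0816 (edgeR). FHL1 (CAGL0G01782g, which recruits Ifh1) was at 0.07 ± 0.09 and RAP1 (CAGL0K04917g, a factor bound at most ribosomal protein promoters) at 0.05 ± 0.11 on the log2 scale. Among 56 genes of TORC1 signalling and ribosomal gene control, the deleted gene was the sole call.

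**Figure D3:**
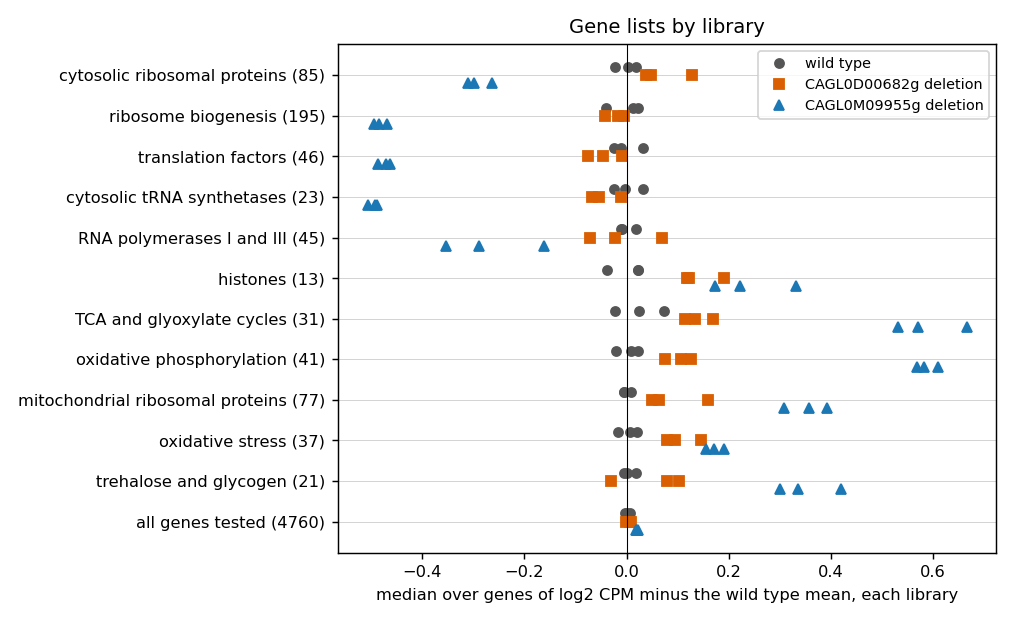
Median over the genes of each list of log2 CPM minus the wild type mean, for each of the 9 C. glabrata libraries (grey circles wild type, orange squares CAGL0D00682g deletion, blue triangles CAGL0M09955g deletion). Numbers in brackets are genes tested. For ribosome biogenesis the squares span -0.04 to -0.004, the circles -0.04 to 0.02 and the triangles -0.49 to -0.47.

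Set against the deletion of the other paralog directly, without use of the wild type, the CAGL0D00682g deletion was higher for 817 genes (17.2%) and lower for 586 (12.3%) by edgeR. Scaling by library size alone turned this split to 454 higher and 1153 lower and moved the median of all genes by -0.15 on the log2 scale, so directions are given only for lists whose median kept its sign under that scaling. Ribosome biogenesis genes were higher in the CAGL0D00682g deletion for 170 of 195 and lower for none, with a median log2 difference of 0.47. For cytosolic ribosomal proteins it was 83 of 85 (median 0.36), for translation factors 42 of 46 with 1 lower (0.46) and for tRNA synthetases 21 of 23 (0.40). Under library size alone these medians were 0.33, 0.22, 0.31 and 0.25.

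Mitochondrial genes differed the other way. Oxidative phosphorylation genes were lower in the CAGL0D00682g than in the CAGL0M09955g deletion for 32 of 41, with a median log2 difference of -0.50, and higher for none. TCA and glyoxylate genes were lower for 17 of 31 and higher for 2 (median -0.52), and mitochondrial ribosomal proteins were lower for 15 of 77 and higher for none (median -0.25). Side by side, against the wild type libraries that both comparisons share, the median log2 fold changes for oxidative phosphorylation were 0.09 in the CAGL0D00682g deletion and 0.60 in the CAGL0M09955g deletion. For ribosome biogenesis they were -0.02 and -0.48.

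Among the genes that differed most was CAGL0E03201g (CHO2, a methyltransferase of phosphatidylcholine synthesis). It had 23.8, 18.8 and 19.6 CPM in the CAGL0D00682g deletion and 58.7, 59.9 and 64.2 CPM in the CAGL0M09955g deletion, a log2 difference of -1.56, with 14.4, 20.7 and 23.0 CPM in wild type. CAGL0L05236g (MDH1, mitochondrial malate dehydrogenase) differed by -1.23 and CAGL0I05874g (of the glycerol phosphatases GPP1 and GPP2) by -1.18. On the other side, CAGL0L10164g (ETT1, linked to translation termination) had 197, 205 and 223 CPM in the CAGL0D00682g deletion and 101, 105 and 96.5 CPM in the other, a difference of 1.05. CAGL0E02343g (RCL1), CAGL0F04983g (DBP9) and CAGL0E02673g (UTP23), all ribosome assembly factors, differed by 0.87, 0.84 and 0.84. CAGL0D00176g, of the glutamate dehydrogenases GDH1 and GDH3, differed by 0.89. Against wild type none of these 8 genes was called in the CAGL0D00682g deletion. Hexose transporter family genes lay on both sides, with CAGL0A02233g at -1.28 and CAGL0A01804g at 1.13.

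The effect was also set against that of the SFP1 deletion in S. cerevisiae, in a joint fit of 12 libraries over 3279 orthogroups with exactly 1 gene in both species. These effects share no library. The log2 effect was higher in C. glabrata for 652 orthogroups (19.9%) and lower for 481 (14.7%) by edgeR. With library size alone the split was 380 higher and 866 lower, and the median of all orthogroups moved by -0.22. In S. cerevisiae 864 of these genes rose (26.3%) and 931 fell (28.4%). The median absolute log2 fold change over the orthogroups was 0.112 in the CAGL0D00682g deletion and 0.312 in the S. cerevisiae deletion.

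Protein synthesis lists had large median differences of effect. In 19 ribosomal protein orthogroups with 1 gene in both species the median fold change on the log2 scale was 0.09 for CAGL0D00682g and -0.94 in S. cerevisiae, and the difference of effects passed for 18, all higher in C. glabrata. Most S. cerevisiae ribosomal protein genes are duplicated and so fell outside this fit. The difference passed for 121 of 177 ribosome biogenesis genes (5 more were lower), 29 of 31 translation factors and 20 of 20 tRNA synthetases, with median differences of 0.57, 0.83 and 1.001. Mitochondrial ribosomal proteins had a difference of 0.46, with 26 of 71 higher and 4 lower, as their S. cerevisiae median was -0.34. Under library size alone these medians kept their sign, at 0.34 for ribosome biogenesis and 0.24 for mitochondrial ribosomal proteins.

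**Figure D4:**
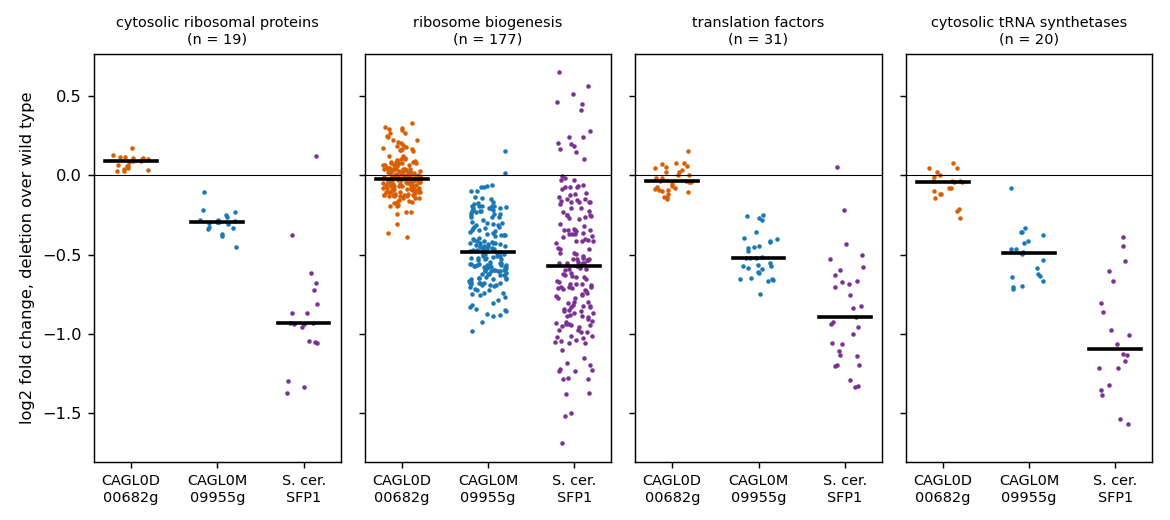
Log2 fold change, deletion over wild type, of each gene of 4 lists (points, with random horizontal spread) in the CAGL0D00682g deletion, the CAGL0M09955g deletion and the S. cerevisiae SFP1 deletion, for genes with 1 copy in both species. Black bars are medians; for ribosomal proteins they lie at 0.09, -0.29 and -0.94.

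The authors' deposited table also holds microarray log ratios for the same deletion in columns marked t30, t60 and t90. Their base, their replication and what the marks count from are not stated, and no error can be given. Their sign was set from the deleted gene, whose ratio, deletion over wild type, was -7.84, -6.94 and -7.55. Of 4654 genes with a ratio and enough counts in the log phase libraries, none lay above 1 and 67 (1.44%) below -1 at t30. At t60 it was 1 (0.0215%) above and 30 (0.645%) below, and at t90 it was 99 (2.13%) above and 5 (0.107%) below. The deleted gene was among those below -1 in each column. The side on which the large ratios lay thus changed between t30 and t90.

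In that table, the medians of many lists were below 0 at t30 and above 0 at t90 in the deletion, so this was not particular to the 3 described next. It held, for example, for auxotrophic marker genes (-0.18 at t30 and 0.58 at t90), oxidative phosphorylation (-0.01 and 0.29) and the phosphate regulon (-0.08 and 0.14). The trehalose and glycogen list had median ratios of -0.48, -0.28 and 0.50, the TCA and glyoxylate list -0.25, -0.08 and 0.70, and the induced environmental stress response -0.21, -0.07 and 0.32. Of 31 TCA and glyoxylate genes 7 were below -1 at t30 and 10 above 1 at t90. Of 76 stress response genes these numbers were 20 and 11. Heat shock chaperones, also a stress list, were not higher at t90: their medians were -0.10, -0.02 and -0.06, with 7 of 41 below -1 at t30 and 2 below -1 and none above 1 at t90. Ribosomal protein genes had medians of 0.10, 0.15 and 0.11, and ribosome biogenesis genes -0.04, -0.03 and -0.10, none of the latter past 1 in any column. Side by side in the same table, the CAGL0M09955g deletion had medians of -0.74, -0.62 and -0.45 for ribosome biogenesis, -0.67, -0.50 and 0.05 for trehalose and glycogen, and -0.43, -0.25 and 0.11 for the stress response. Its TCA and glyoxylate median was -0.24 at t30 and t60 and -0.0004 at t90. Below -1 at t30 were 9 trehalose and glycogen genes, 29 stress response genes, 8 TCA and glyoxylate genes and 9 heat shock chaperones in that deletion. Over all 4654 genes, 360 were below -1 at t30 there, beside 67 in the CAGL0D00682g deletion.

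The genes at the extremes of these ratios were picked after their values were seen. HSP104 (CAGL0G03883g, a disaggregase) was at -3.64, -1.61 and -0.70 in the authors' deposited table, and at a log2 fold change of -0.26 ± 0.11 in log phase, which did not pass (adjusted p 0.41, edgeR). HSP78 (CAGL0M08822g, its mitochondrial counterpart) was at -3.15, -0.96 and -0.13. Genes of acetate use crossed from low to high. CAGL0L03982g, of the malate synthase orthogroup of MLS1, was at -2.44, -1.74 and 1.56, and CAGL0L00649g, of the acetyl-CoA synthetases ACS1 and ACS2, at -2.69, -1.86 and 1.64. FBP1 (CAGL0H04939g, fructose-1,6-bisphosphatase of gluconeogenesis) was at -1.33, -1.08 and 2.56, and FAA2 (CAGL0H09460g, a fatty acid activating enzyme) at -1.77, -0.97 and 2.94. None of these genes was called in the log phase libraries.

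Conversely, the genes called in log phase had modest ratios on the arrays. Of 22 with a ratio besides the deleted gene, none passed 1 in either direction at t30 or t60 in the authors' deposited table. At t90 the sole one was CAGL0B00990g (FRM2 and HBN1), at 1.31. CAGL0M13343g (GND1 and GND2) was at -0.64, -0.08 and 0.76.

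**Figure D5:**
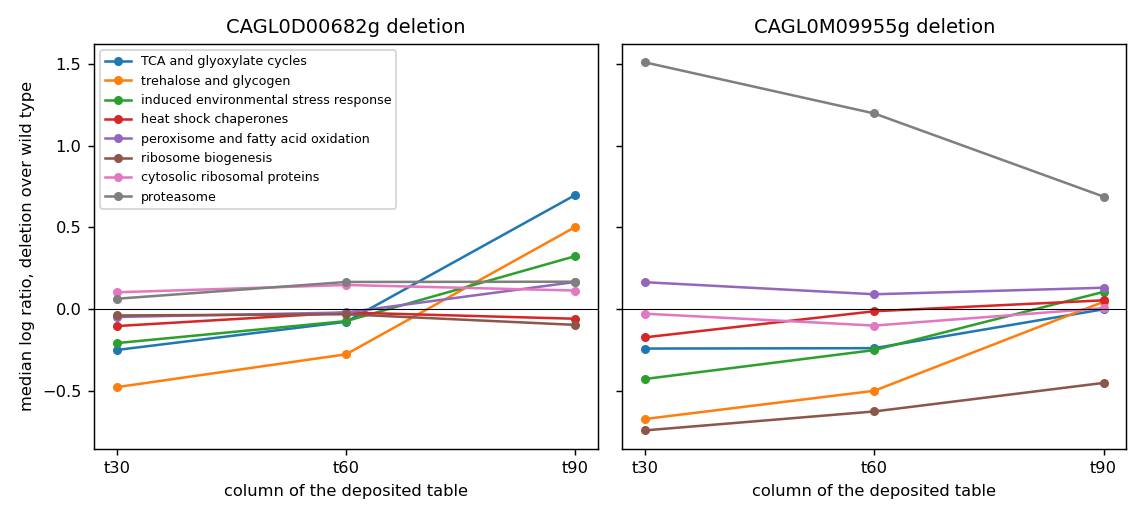
Median of the authors' deposited microarray log ratios (deletion over wild type, base not stated) over the genes of 8 lists, in the columns t30, t60 and t90, for the CAGL0D00682g deletion on the left and the CAGL0M09955g deletion on the right. On the left the TCA and glyoxylate list moves from -0.25 to 0.70 while ribosome biogenesis stays between -0.10 and -0.03.

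Of the other lists, none had a call in the CAGL0D00682g deletion for amino acid biosynthesis, autophagy, auxotrophic marker genes, drug resistance and membrane transport, glycolysis and fermentation, mating and haploid-specific genes, heat shock chaperones, mitochondrial ribosomal proteins, meiosis and sporulation, peroxisome and fatty acid oxidation, phosphate regulon, proteasome, purine and pyrimidine synthesis, sulfur and methionine, or trehalose and glycogen. Their median log2 fold changes ran from -0.09 for drug resistance and membrane transport to 0.09 for mitochondrial ribosomal proteins. For hexose transport and sensing 1 of 29 was called, the CAGL0A02211g fall described above. The induced environmental stress response had 2 calls of 77, the GND and TSA genes, and a median of 0.03. Over all genes tested 27 of 4760 were called. Of a panel of 32 genes chosen by name for translation, metabolism, stress and mating, 30 were tested and 1, RPA190, was called. The other 29 had log2 fold changes from -0.36 for CAGL0H02387g (of the trehalose synthase genes TPS1, TPS3 and TSL1) to 0.45 for CAGL0C03223g (SDH2). Translation elongation factor 1 alpha (TEF1 and TEF2), among the most abundant transcripts, was at 0.002 ± 0.04 for CAGL0K07832g and -0.03 ± 0.05 for CAGL0D01188g. HSP12 (CAGL0J04202g) and STE3 (CAGL0M08184g) had too few counts to be tested.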

How the data were processed

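RNA was extracted with a Qiagen RNeasy kit from log phase cultures, and polyadenylated RNA was sequenced as paired reads of 25 bases, per the labels' protocols. The deposited tables hold expected counts per gene; RSEM 1.2.11, Bowtie 1 and edgeR are named in the submitters' processing notes, and for the C. glabrata genome build, none is given in the sources used here. The authors' deposited log2 fold changes for log phase had a slope of 1 on those computed here over 4682 genes. The authors' microarray log ratios were treated as scores because their base is not stated in the deposited table or the labels, and their sign was turned to deletion over wild type. Gene names came from the authors' deposited orthogroup numbers, which gave 4935 of 5461 features a S. cerevisiae name.

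Expected counts were rounded to whole numbers and fitted with edgeR 4.0.16 (quasi-likelihood test, TMM factors, filterByExpr defaults with a minimum count of 10) in R 4.3.3. All 9 C. glabrata log phase libraries entered one fit without covariates, with contrasts of the CAGL0D00682g deletion against wild type and against the CAGL0M09955g deletion. A joint fit of 12 libraries tested the difference from the S. cerevisiae effect. Tests were two-sided with Benjamini-Hochberg adjustment over all genes tested and a threshold of 0.05, and the code was tested on simulated data. Library totals ran from 2063182 to 2678841 in the 6 libraries compared and from 1360916 to 3091488 in S. cerevisiae; intervals and floors cover counting error only where they rest on counts.

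Alternatives were RLE factors, library size alone, no filter, DESeq2 1.42.0, only the 6 libraries compared, the replicate letter as a block, and each library left out. Genes were named by rule: the SFP1 genes and 3 neighbours a side, up to 15 non-overlapping called genes each way whose mean log2 CPM was 4 or more, up to 4 a list, a panel, and the 10 largest differences each way in the other contrasts. Called genes that overlap, have lower levels or were not on this list are named outside the rule, as are the genes at the extremes of the array ratios and CAGL0A02299g and CAGL0A02321g, chosen after their values were seen. The gene lists, the panel and the comparisons were chosen with earlier results of these data known. Promoter and protein sequences were not used here.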

Additional observations from a re-analysis of the deposited data

Results flagged for a closer look

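The effect of the CAGL0D00682g deletion differed from that of the S. cerevisiae SFP1 deletion, in a test of the difference itself (edgeR, joint fit), for 652 orthogroups with a higher value in C. glabrata and 481 with a lower one. The named differences below are log2 values, C. glabrata effect minus S. cerevisiae effect.

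Higher in C. glabrata were GPH1 (CAGL0F04895g, glycogen phosphorylase) at 3.465, LIA1 (CAGL0F00407g, deoxyhypusine hydroxylase) at 2.009, FUR1 (CAGL0H09064g, uracil phosphoribosyltransferase) at 2.004, MAE1 (CAGL0L02035g, malic enzyme) at 1.95 and MET6 (CAGL0I04994g, methionine synthase) at 1.833. The S. cerevisiae effect on GPH1 was -3.586. DAD4 (CAGL0H07073g, a kinetochore protein of the DASH complex) was at 1.764, but neither effect passed alone: the C. glabrata effect was 1.545 (adjusted p 0.309) and the S. cerevisiae effect -0.2198 (adjusted p 0.332). DAD4 had 1.197 ± 0.670 CPM (SD, n = 3) in wild type C. glabrata, too few counts to be tested in the fit of the 9 C. glabrata libraries. YPL245W (CAGL0H00825g) was at 1.742, RKI1 (CAGL0L03740g, ribose-5-phosphate isomerase) at 1.728, MRP35 (CAGL0L04070g) at 1.722 and ILV3 (CAGL0B03993g, dihydroxyacid dehydratase) at 1.699.

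Lower in C. glabrata were PUT1 (CAGL0M04499g, proline oxidase) at -3.636, PDH1 (CAGL0L09108g, methylcitrate dehydratase) at -3.254 and ARO10 (CAGL0A03102g) at -2.49. Their S. cerevisiae effects were 3.52, 3.643 and 2.895, and ARO10 rose in both species. COS111 (CAGL0M05445g) was at -2.469, CCZ1 (CAGL0C00561g) at -2.248, JHD2 (CAGL0H00528g, a histone demethylase) at -2.156 and HMX1 (CAGL0A03905g, heme oxygenase) at -1.96. CAT2 (CAGL0J11836g, carnitine acetyltransferase) was at -1.827, POA1 (CAGL0B04411g) at -1.804 and LYS2 (CAGL0K07788g, of lysine synthesis) at -1.735.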

How the results depend on the processing

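For the CAGL0D00682g deletion against wild type, DESeq2 called 19 genes (210 at an unadjusted p below 0.05), library size alone 19 with 4 lower, no filter 33, and fits without single libraries 18 to 31, with 11 to 23 higher and 6 to 10 lower. The fewest rises, 11, came without wild type A. Of the 27 called genes, 8 kept the call in every alternative of the 12 that gave them an adjusted p and 19 lost it in at least 1; 0 changed direction. Against the CAGL0M09955g deletion, DESeq2 called 901 genes with 277 lower, library size alone gave 454 higher and 1153 lower, and leaving out single libraries gave 1170 to 1317 calls. Against the S. cerevisiae effect, library size alone gave 380 higher and 866 lower, and leaving out single libraries gave 1017 to 1135. The cause of these shifts was not tested. Replicate letters did not pair the samples (correlations of same-letter deviations -0.0201 to 0.0141); with the replicate block, 26 genes were called, with 1367 and 1100 in the other contrasts. Depth limits the genes of low level: the 95% interval lay within 1 of 0 on the log2 scale for 4512 of 4760 genes.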

Other observations

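Features CAGL0L13365r and CAGL0L13398r did not differ between the CAGL0D00682g deletion and wild type by edgeR's test (log2 fold changes -0.05 and -0.12, adjusted p 0.779 and 0.376), although the share of CAGL0L13365r ran from 34.2% in deletion library A to 39.1% in deletion library C. CAGL0L13409r had 472, 516 and 1164 CPM in deletion libraries A, B and C and 577, 571 and 388 CPM in wild type, with library C again the highest.

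Genes below -1 in the CAGL0D00682g array column t30 of the authors' deposited table had a median of -1.82 in the same column for the CAGL0M09955g deletion. Those above 1 at t90 had a median of 0.35 there. The deleted gene was among those below -1 at t30. Whether the array comparisons shared reference samples is not stated.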
